A study of Rattus norvegicus with 15 samples.

Results

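Cytosolic ribosomal proteins are the protein parts of the ribosomes that translate messenger RNA in the cytoplasm. They were chosen by name: genes whose probe sets carried a single platform symbol that begins with Rpl or Rps and a number, or that reads Rplp0, Rplp1, Rplp2 or Rpsa, without the Rps6k kinases. This gave 44 of the 4736 gene symbols on the array, 30 of the large ribosomal subunit and 14 of the small one. The 44 genes had 64 probe sets, groups of short probes against 1 transcript, and 17 genes had more than 1; each gene is given by the set that was brightest on average over all arrays. The arrays measured total RNA of rat neurons taken by laser capture microdissection from the ventral tegmental area (VTA, 7 arrays) and the substantia nigra pars compacta (SNc, 8 arrays) of the midbrain. The labels name no strain, age or treatment of the rats. The labels number the arrays within each region (1 to 8 for SNc, 1 to 6 and 8 for VTA) without stating whether a number stands for an animal, so p-values reflect how much these arrays varied, and part of that variation may be technical. Dopamine neuron markers were present in both regions: all 7 of 7 (Th, Ddc, Slc6a3, Slc18a2, Nr4a2, Pitx3, Ret) were bright enough to be tested, with summed signals of 20932 to 25502 in SNc and 17372 to 25165 in VTA, and 0 of them passed the test between the regions. Of the 4 GABA neuron markers, Gad1 and Pvalb passed it and were higher in SNc, and the list summed to 909 to 1848 in SNc and 551 to 1022 in VTA.

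A ribosome pairs a small subunit, which reads the messenger RNA, with a large subunit, which joins the amino acids. Cells make the ribosomal proteins in matched amounts, and in mammals much of this matching acts on translation: most ribosomal protein messenger RNAs begin with a C followed by a run of pyrimidines, the terminal oligopyrimidine tract, through which the kinase mTOR controls how actively they are translated. Arrays measure RNA levels, not translation. In neurons ribosomes fill the cell body as Nissl substance and are also found in dendrites and axons.

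The tract was looked for at the annotated start of each gene in RefSeq's rat assembly GRCr8, in which 37 of the 44 genes had a start sequence. A C at the first base followed by at least 4 C or T, read on the gene's strand, was present in 11 of the 37 genes (29.7%) and in 463 of 18999 genes in all (2.44%). The 11 were Rpl14, Rpl17, Rpl19, Rpl22, Rpl31, Rpl35, Rpl35a, Rpl39, Rplp0, Rps15 and Rps3a. The 30 bases around the start, 15 before it and 15 from it on, are printed for the member that passed the test between the regions (Rps15), for members with the run whose values are described further on (Rpl19, Rpl31, Rpl35a, Rplp0), and for 2 described members without it at this annotated start (Rps6, Rpl24). Capitals mark the pyrimidine run that begins at the annotated first base.
Rps15 (chr7:10068101-10068130, minus strand): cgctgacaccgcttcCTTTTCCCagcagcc
Rpl19 (chr10:83519049-83519078, plus strand): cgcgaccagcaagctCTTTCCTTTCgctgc
Rpl31 (chr9:49143096-49143125, plus strand): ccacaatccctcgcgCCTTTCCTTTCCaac
Rpl35a (chr11:81235007-81235036, minus strand): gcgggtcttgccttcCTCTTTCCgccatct
Rplp0 (chr12:46718376-46718405, minus strand): gaccgcaccgcacttCTCTCgccaggcgtc
Rps6 (chr5:106420526-106420555, minus strand): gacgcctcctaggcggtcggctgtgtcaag
Rpl24 (chr11:58128391-58128420, minus strand): gaatttagggaggagattctctaccctata
A missing run says only that these letters do not stand at this annotated first base. In the 300 bases around each start, the sequence CCGGAAGT, on either strand, stood in 5 of the 37 genes (13.5%, against 4.99% of all genes), and AAGATGGC in 4 (10.8%, against 3.92%). The sequence TATAAA stood in 5 of the 37 (13.5%), against 13.1% of all genes. Rplp1l3, whose label is doubtful as described below, was among these 5 and is counted in the 37.

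Ribosomal proteins were among the strong signals of both regions, and nearly all of those compared did not pass the test between SNc and VTA. Of the 44 genes, 41 passed the filter on low signal and were compared, 28 of the large and 13 of the small subunit. Only Rps15 passed the test (limma, Benjamini-Hochberg adjusted p under 0.05 over 5244 probe sets), and it was higher in VTA. That is 1 of 41 members (2.44%), next to 1.98% of all probe sets tested (1.14% higher in VTA and 0.839% higher in SNc). At an unadjusted p under 0.05 there were 4 members (Rps15, Rpl18, Rpl19 and Rpl27a), all higher in VTA, which is 9.76% of 41 against 15.4% of all probe sets (9.57% higher in VTA). In 1 of the 41 genes, Rps15, the arrays of both regions did not overlap, against 0.858% of all probe sets. The probe set used for Rps15 was the gene's brightest only through its VTA signal, as described below. In captured tissue, fewer cells of a type and less RNA per cell cannot be told apart.

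The median difference of the 41 members, SNc minus VTA on the log2(signal + 16) scale, was -0.09, with quartiles of -0.21 and 0.11. The medians over all 5244 probe sets and over all 3216 genes tested were both -0.04, and that of the 525 brightest probe sets was 0.07. Of the members, 25 (61.0%) had a lower and 16 a higher mean in SNc. The share lower in SNc was 56.7% over all probe sets tested and 37.0% over the 525 brightest. The median was -0.10 for the 28 large subunit genes (17 lower, 11 higher in SNc) and -0.03 for the 13 small subunit genes (8 lower, 5 higher). These medians were small beside the spread of single arrays: the median member level of an array had an SD of 0.17 within a region. The median turned positive without VTA 5 (0.02) and stayed negative without any other single array (-0.14 without VTA 4), and it was 0.01 with each array centred on its median. The oligodendrocyte markers, which also had higher sums in VTA (7686 to 11315, against 5269 to 9490 in SNc; 5 tested, 0 called), and the GABA neuron markers differed between the same arrays, and their part in the members' differences was not tested.

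The precision of the comparison can be read from the 95% intervals. They lay wholly within a 2-fold difference in either direction for 40 of the 41 members, all but Rps24, and for 91.3% of all probe sets. The median standard error (SE) of a member's difference was 0.17.

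**Figure D1:**
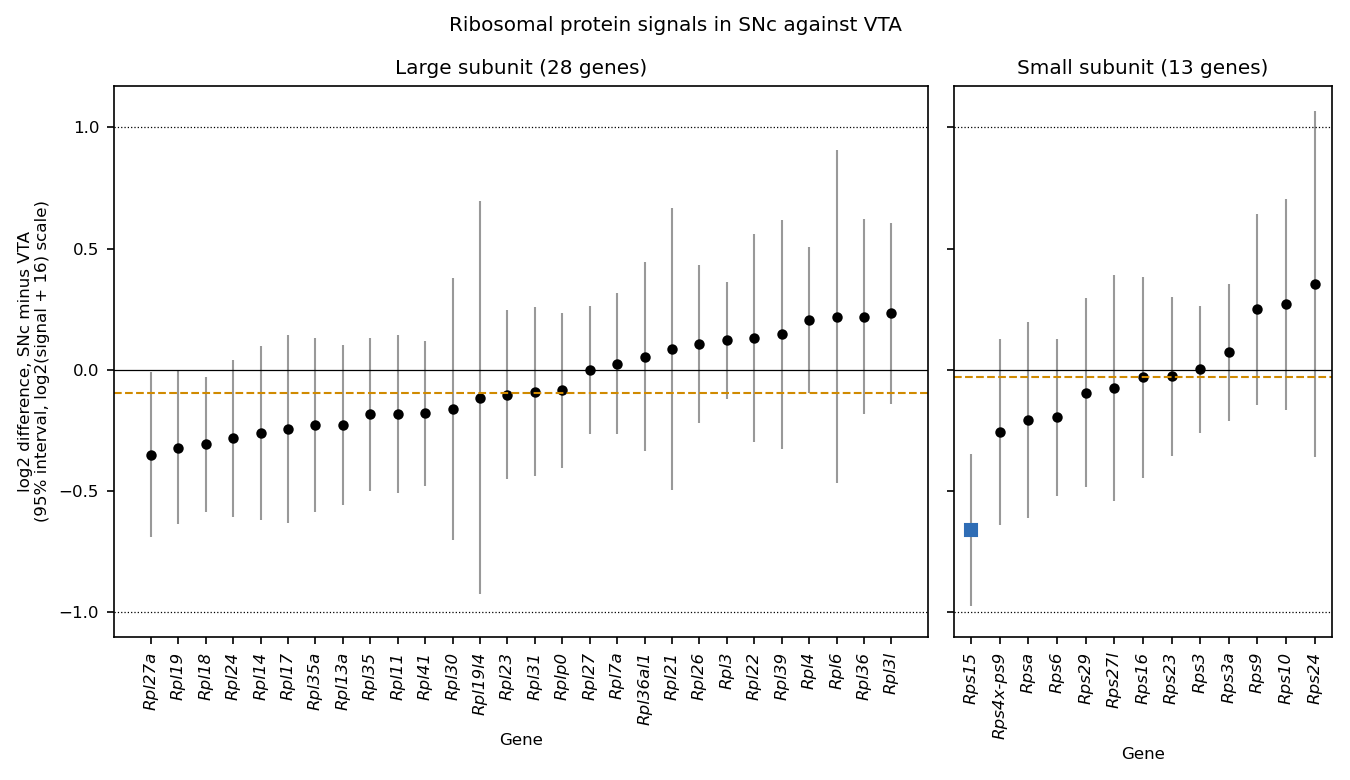
Difference of each ribosomal protein gene between SNc and VTA on the log2(signal + 16) scale (points, vertical axis) with its 95% interval (bars), ordered within the large subunit (28 genes) and the small subunit (13 genes). The dashed line is the median of each subunit (-0.10 and -0.03), dotted lines mark a 2-fold difference, and the blue square is Rps15, the single member past the adjusted threshold.

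Rps15, a protein of the small subunit's head that is needed for export of the maturing subunit from the nucleus, was the member with the largest difference. Its signal ranged from 434.0 to 771 in SNc (median 638) and from 822 to 1140 in VTA (median 886). All 7 VTA arrays lay above all 8 SNc arrays. The means were 601 ± 129 (SD, n = 8) in SNc and 948 ± 125 (SD, n = 7) in VTA, a difference of -0.66 (SE 0.15, 95% interval -0.98 to -0.35; limma adjusted p = 0.0282, unadjusted 0.000303).

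The other probe sets of Rps15 did not all show this difference. The gene has 3 probe sets. The difference above came from rc_AA892895_r_at, whose suffix marks a set built with relaxed rules for choosing probes. It stood for the gene because its mean over all arrays was highest (763, against 733 for E01534cds_s_at). In SNc E01534cds_s_at was the brighter of these sets (733 against 601), so the choice followed from the high VTA signal. A second set against the same expressed sequence, rc_AA892895_i_at, gave 177 ± 26.7 in SNc and 238 ± 49.3 in VTA, a difference of -0.38 (SE 0.15, limma adjusted p = 0.223), and 5 of its 7 VTA arrays lay above all SNc arrays. The set made against the coding sequence, E01534cds_s_at, gave 733 ± 155 in SNc and 732 ± 149 in VTA, a difference of -0.00 (SE 0.17, limma adjusted p = 0.995), with 1 VTA array above all SNc arrays and the regions overlapping over most of their range. Within a region the 3 sets did not move together over the arrays (Pearson r of their deviations from the region mean, -0.48 to 0.06 over 15 arrays). VTA 4 shows this: its signal was 1095 on the first set, the second highest of the VTA arrays, and 148 on the second set, the lowest of them. Averaged over its 3 probe sets the difference was -0.35 and the call was lost (limma adjusted p = 0.106). The call was also lost with median centring (0.0501) and without SNc 1 (0.0526), SNc 3 (0.0623), SNc 6 (0.0551), VTA 3 (0.0531) or VTA 4 (0.0575). Over all 30 alternatives the difference lay between -0.80 and -0.35, with adjusted p between 0.00854 and 0.865. All alternatives but the average over probe sets used rc_AA892895_r_at. On that set the regions did not overlap, so leaving arrays out could not change the sign.

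**Figure D2:**
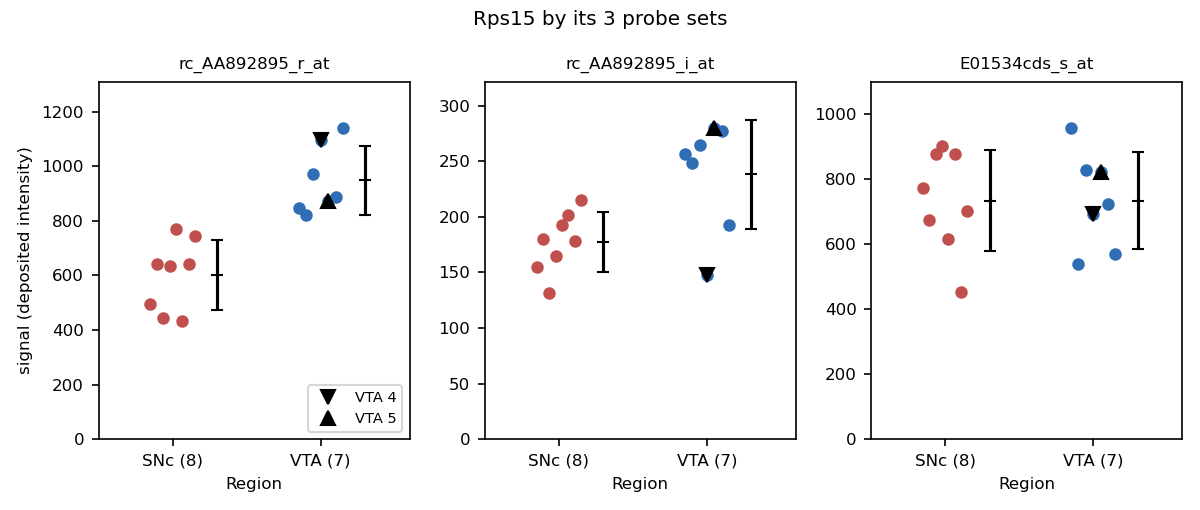
Deposited signal of Rps15 (vertical axis) on each SNc (red) and VTA (blue) array for its 3 probe sets, with mean and SD beside the points and VTA 4 and VTA 5 as black triangles. The regions stand apart on the first set (601 and 948), overlap in part on the second (177 and 238) and overlap over most of their range on the set against the coding sequence (733 and 732).

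Among large subunit genes, the lowest differences belonged to Rpl27a, Rpl19, Rpl18, Rpl24 and Rpl14, and none of them passed the test. Rpl27a, a core protein of the large subunit, ranged from 983 to 1654 in SNc (median 1184) and from 1221 to 2383 in VTA (median 1396), a difference of -0.35 (SE 0.16, limma adjusted p = 0.305). Its 7 VTA arrays all lay above the SNc mean, but the regions overlapped. Rpl19, which reaches across to the small subunit, ranged from 1419 to 2717 in SNc (median 2240) and from 1970 to 3171 in VTA (median 2843), a difference of -0.32 (SE 0.15, adjusted p = 0.312 by limma). For Rpl18 the signals were 425 to 768 in SNc (median 633) and 658 to 852 in VTA (median 807), a difference of -0.31 (SE 0.13, limma adjusted p = 0.261). All 7 VTA arrays of Rpl18 lay above the SNc mean, and no SNc array reached the VTA mean.

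Rpl24, which forms a bridge between the subunits, had a difference of -0.28 (limma adjusted p = 0.392). Its SNc signals ran from 1079 to 2305 and its VTA signals from 1610.1 to 2071, so the VTA range lay inside the SNc range. Rpl14 had a difference of -0.26 (limma adjusted p = 0.499), with 282 to 456 in SNc and 279 to 619 in VTA. Rplp0 carries the stalk on which elongation factors land and is often used as a reference gene. It ranged from 849 to 1526 in SNc (median 1219) and from 1084 to 1623 in VTA (median 1255). Its difference was -0.09 (SE 0.15, limma adjusted p = 0.837).

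At the other end were Rpl3l, Rpl36 and Rpl6, with means higher in SNc that did not pass the test. Rpl3l, the striated muscle counterpart of Rpl3, was dim: 58.4 to 117 in SNc (median 83.4) and 38.7 to 99.5 in VTA (median 69.6), a difference of 0.23 (limma adjusted p = 0.569). Rpl36 ranged from 345 to 705 in SNc and from 285 to 697 in VTA, a difference of 0.22 (limma adjusted p = 0.620). Rpl6 varied far more between arrays than between regions, from 883 to 4471 in SNc (median 2731) and from 798 to 4389 in VTA (median 2138), with a difference of 0.22 (SE 0.33, limma adjusted p = 0.797). Rpl3 lies close to the site where peptide bonds form and had the brightest member probe set. It gave 6565 ± 433 in SNc and 6064 ± 726 in VTA, a difference of 0.12 (limma adjusted p = 0.660), and its spread within a region, an SD of 0.13 in log2, was the smallest of the 41.

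Of the small subunit genes other than Rps15, none passed the test. Rps24, Rps10 and Rps9 had the largest positive differences. Rps24 was dim and widely spread, with 17.1 to 158 in SNc (median 66.7) and 12.4 to 134 in VTA (median 51.9), a difference of 0.35 (SE 0.34, limma adjusted p = 0.662). Rps10 ranged from 209 to 494 in SNc and from 176 to 448 in VTA, a difference of 0.27 (limma adjusted p = 0.573). Rps9, which lines the path where messenger RNA enters the subunit, ranged from 752 to 1483 in SNc and from 501 to 1235 in VTA, a difference of 0.25 (limma adjusted p = 0.567). In all 3 genes the regions overlapped over most of their range.

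Rps6, the protein that S6 kinases phosphorylate downstream of mTOR, ranged from 2613 to 4781 in SNc (median 3525) and from 2914 to 4769 in VTA (median 3954). Its difference was -0.20 (SE 0.15, limma adjusted p = 0.580), and both ranges nearly coincided. Rpsa, also known as the laminin receptor precursor, ranged from 556 to 1289 in SNc (median 637) and from 595 to 1365 in VTA (median 811), with a difference of -0.21 (SE 0.19, limma adjusted p = 0.650). The highest SNc value of Rpsa, on SNc 8, stood apart from the other 7. The differences of the remaining small subunit genes lay between -0.26 (Rps4x-ps9) and 0.07 (Rps3a), and those of the remaining large subunit genes between -0.25 (Rpl17) and 0.21 (Rpl4).

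The 3 members below the filter had mean signals of 28.5 (Rpl5), 16.2 (Rps2-ps1) and 4.29 (Rplp1l3) and were not compared. Rpl5 binds 5S ribosomal RNA together with Rpl11, which was measured at 1397 ± 190 in SNc and 1618 ± 418 in VTA. Rps2-ps1 and Rps4x-ps9 are annotated in RefSeq as pseudogenes, and RefSeq gives Rplp1l3 the synonyms Bpifb5 and Bpifb9, names of secreted proteins unrelated to the ribosome, so the platform's label for that probe set is doubtful. Rplp1 and Rplp2, the other stalk proteins, had no probe set with a single symbol. Ribosomal protein genes have many near-identical processed copies in mammalian genomes, so the signal of any of these probe sets may include RNA of a copy. Another 31 probe sets carried several symbols, all of them ribosomal, and no gene was named from them. Of the 30 of these that passed the filter 0 were called and their median difference was -0.09. A lower mean in SNc was found for 22 of them (73.3%), against 56.7% of all probe sets tested.

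In 16 genes at least 2 probe sets were tested. In 4 of them, Rpl26, Rpl21, Rpl3 and Rps3, the sets gave differences of opposite sign, and after Rps15 they differed most for Rpl26 and Rpl21. Rpl26 had differences of 0.11 and -0.27 by its 2 sets. The 4 sets of Rpl21 ran from -0.21 to 0.09. Rpl3 had 0.12 and -0.09, and Rps3 0.00 and -0.09. None of these sets passed the test. The 19 tested sets that were not the brightest of their gene had a median difference of -0.21, and 0 were called. Of these 19, 16 were lower in SNc (84.2%, against 56.7% of all probe sets tested). Over the arrays, the sets of a gene tracked each other closely for Rpl24 (r = 0.94), Rps29 (0.89), Rpsa (0.81) and Rps3 (0.80), and did not for Rpl6 (-0.22). These r values describe 15 arrays of deviations from the region mean, and the paired sets share the same RNA and scaling.

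The difference between the large and small subunit genes did not separate the regions. The mean log2 level of the 28 large subunit genes minus that of the 13 small subunit genes was -0.09 ± 0.13 (SD, n = 8) in SNc, from -0.24 to 0.10, and -0.07 ± 0.10 (SD, n = 7) in VTA, from -0.22 to 0.07. Both ranges overlapped nearly fully. The value is no ratio of subunits, since probe sets differ in brightness. Large and small subunit genes moved to the same side on the arrays that stood apart.

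Those arrays were VTA 4 and VTA 5, which moved in opposite directions. For each gene the deviation from its mean in the same region was taken, so that the region difference drops out. On VTA 4 the median deviation of the 41 members was -0.39, a level 0.763 times the region mean, and 4 of 41 members were above their region mean. On VTA 5 the median deviation was 0.36, a level 1.28 times the region mean, and 36 of 41 members were above it. The other 13 arrays had medians between -0.15 and 0.15. Over all genes tested, 59.0% were above their region mean on VTA 4 and 46.7% on VTA 5.

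The shift on VTA 4 and VTA 5 was seen in both subunits and in both kinds of further probe sets. The arrays were picked by the median of all members, so the split by subunit reuses the values behind that choice. On VTA 4, 2 of 28 large and 2 of 13 small subunit genes were above their region mean, and on VTA 5, 25 of 28 and 11 of 13. Of the 30 probe sets with several ribosomal symbols, 4 were above on VTA 4 and 28 on VTA 5, and of the 19 other probe sets of the members, 3 and 16. From VTA 4 to VTA 5 the widest spans were those of Rpl6, with -1.41 on VTA 4 and 1.02 on VTA 5, and of Rpl19l4, a Rpl19 copy, with -0.68 and 1.03. Rpl35a (-0.70 and 0.33), Rpl31 (-0.60 and 0.68), Rpl23 (-0.58 and 0.69) and Rps29 (-0.55 and 0.59) were also below the mean on VTA 4 and above it on VTA 5. Rps15, by rc_AA892895_r_at, went the other way, with 0.22 on VTA 4 and -0.11 on VTA 5. Its other sets did not. Their signals on VTA 4 and VTA 5 were 148 and 280 for rc_AA892895_i_at, and 691 and 820 for E01534cds_s_at. The other members not above their mean on VTA 5 were Rpl30 (-0.31, with -0.05 on VTA 4), Rpl4 (-0.10, with -0.12), Rplp0 (-0.08, with -0.25) and Rps16 (-0.00, with -0.19). Besides Rps15, the members above their mean on VTA 4 were Rpl3l (0.25), Rps9 (0.12) and Rpl7a (0.00).

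**Figure D3:**
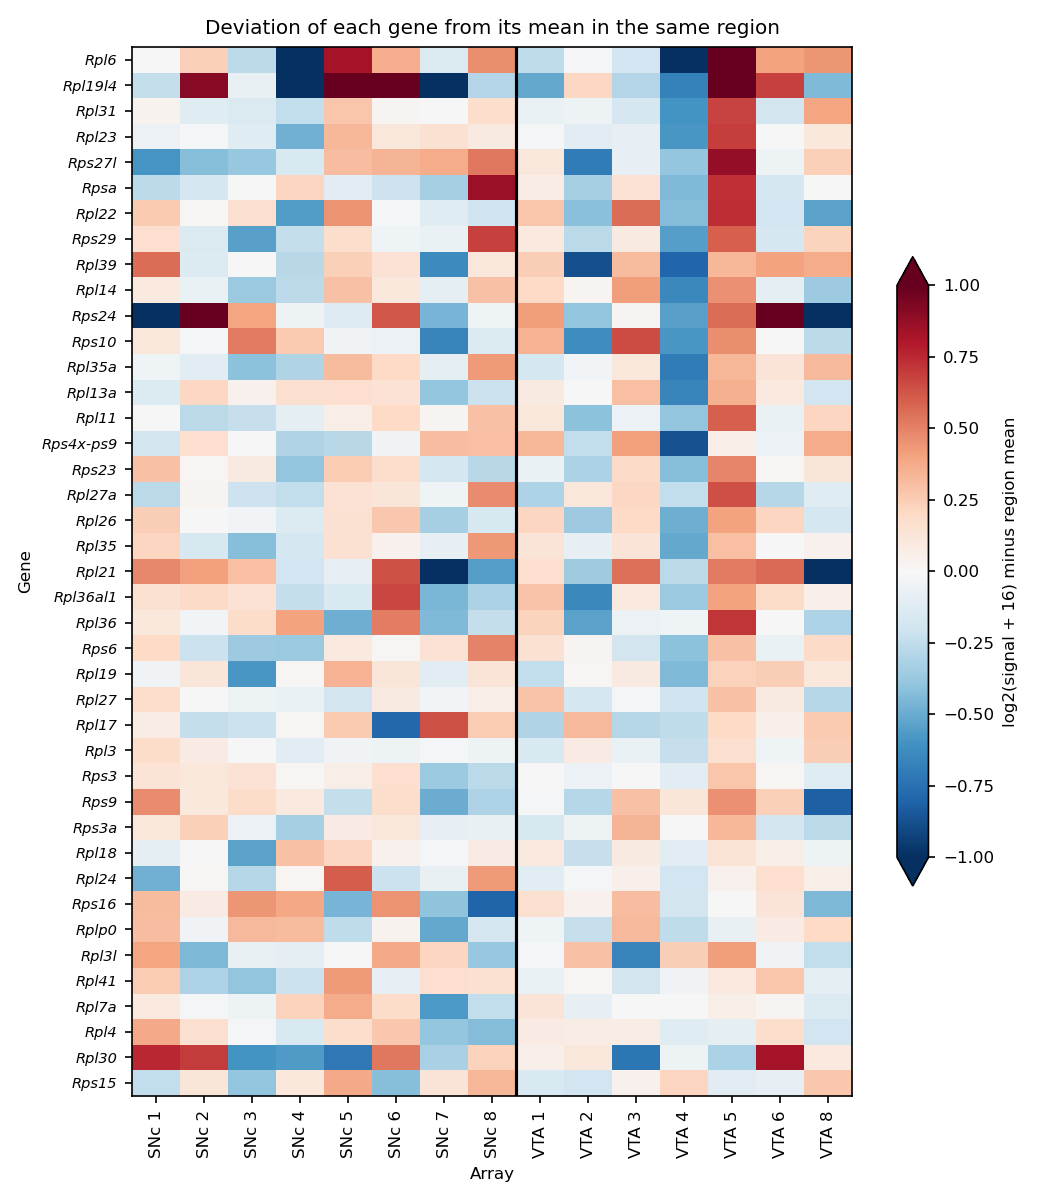
Deviation of each of the 41 ribosomal protein genes (rows) from its mean in the same region on each array (columns), on the log2(signal + 16) scale, with red above and blue below the mean and colours ending at -1 and 1. Rows are ordered by VTA 5 minus VTA 4. The VTA 4 column is blue for 37 of 41 genes and the VTA 5 column red for 36 of 41. Rps15, shown by rc_AA892895_r_at alone, lies at the bottom.

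Several control values differed on these arrays. The GAPDH control, whose 3' to 5' signal ratio is a sign of how complete the labelled RNA was, ranged from 3.31 to 5.05 over the SNc arrays and from 2.94 to 6.82 over the VTA arrays. It was lowest of all 15 arrays on VTA 4 (2.94) and second highest on VTA 5 (5.66), after VTA 8 (6.82), where the median deviation of the members was -0.01. The signal of CreX, a control RNA that is added to the labelled sample before hybridization, was highest of all arrays on VTA 5 (24105) and second lowest on VTA 4 (9799), above SNc 4 (6260). The signal of the 5S ribosomal RNA control was lowest of all arrays on VTA 4 (16.6) and highest on VTA 5 (94.6). That of BioB, another spike, was 191 on VTA 4 and 456 on VTA 5, the highest of all arrays. The 3' to 5' ratio of the actin control did not single these arrays out (8.03 and 9.43, in a range of 6.14 to 15.4). Summed signals of other cell types, which take in every listed marker on the array, also those below the filter, differed too. The oligodendrocyte markers (5 tested of 5 on the array) summed to 7686 on VTA 4, the lowest VTA value, and to 10745 on VTA 5. The astrocyte markers (6 tested of 7, Gja1 near 0) summed to 2448 on VTA 4, the lowest of all arrays, and 3747 on VTA 5; their range was 2611 to 3689 in SNc and 2448 to 5025 in VTA. The vessel and blood markers (4 tested of 5, Vwf below the filter) summed to 279 and 960; their range was 244 to 541 in SNc and 279 to 1445 in VTA. The GABA neuron markers (4 tested of 4) went the other way, with 1003 on VTA 4 and 794 on VTA 5. The microglia markers (2 tested of 7) summed to 160 and 151, and these sums include the other 5, which were below the filter on low signal. The dopamine neuron markers summed to 22469 and 22701. The sums of these 2 lists did not separate VTA 4 from VTA 5. The part of RNA completeness, control signals and other cells in the ribosomal protein levels was not tested.

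**Figure D4:**
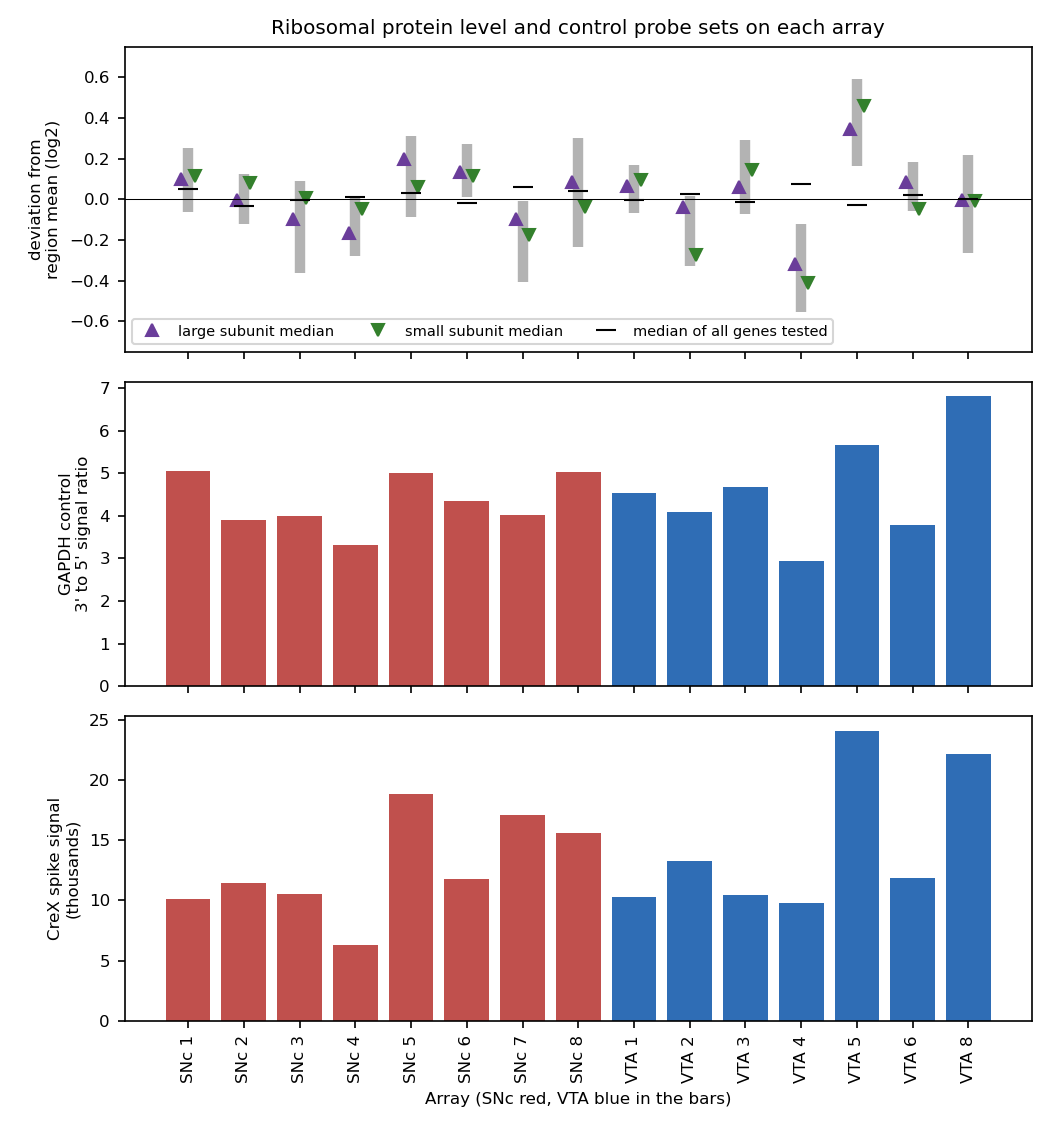
Top, median deviation of large (upward triangles) and small (downward triangles) subunit genes from the region mean on each array, with the quartiles of all 41 genes (grey bars) and the median of all genes tested (dashes), in log2. Middle and bottom, the 3' to 5' ratio of the GAPDH control and the signal of the CreX spike on the same arrays; VTA 4 has the lowest ribosomal median (-0.39) and the lowest ratio (2.94), VTA 5 the highest median (0.36) and the highest spike (24105).

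Pairs of members varied together from array to array more than pairs of all genes tested did. Over the 820 pairs of members, the median Pearson r of deviations from the region mean was 0.26 over the 15 arrays, with 76.7% of pairs above 0 and 24.9% above 0.5. Over all pairs of genes tested the median was 0.01, with 5.12% above 0.5, and over the pairs of the 335 brightest genes it was also 0.01, with 8.57% above 0.5. All of these values share the same arrays, scaling and RNA, and no test was made of them. The median was 0.28 for large with large, 0.21 for small with small and 0.24 for large with small subunit genes, so the medians within and between the subunits lay close together. Pairs of a member with a gene outside the group had a median of -0.03. Among lists of other translation genes, described below, the 5 elongation factors came near the members, with a median of 0.22 among themselves. The median was 0.09 for initiation factors and 0.06 for genes of the nucleolus and ribosome assembly. It was -0.01 for the mTOR list and -0.03 for mitochondrial ribosomal proteins. The first component of the members' deviations held 36.9% of their variance and the second 21.9%, against 14.4% and 12.9% for all genes. These shares are not like for like, since 41 genes stand against 3216 and a smaller list tends to give larger shares. Genes were not scaled, so Rpl19l4, Rps24 and Rpl6 weigh most. Their SDs within a region were 0.87, 0.76 and 0.73, against a median of 0.31 for the members.

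The co-variation was larger among the VTA arrays, which include VTA 4 and VTA 5, than among the SNc arrays. Within SNc the median r over the 820 pairs was 0.15 and within VTA 0.43, with 0.01 for all genes in each region. Without VTA 4 it was 0.20 over the remaining arrays, without VTA 5 it was also 0.20, and without both 0.13, against 0.01 for all genes. These arrays were picked because the members' own median deviation was lowest on VTA 4 and highest on VTA 5. Leaving them out tends to lower r by that choice, so the fall does not show where the co-variation comes from. The median r within VTA without them was not computed. Over all arrays, the 30 probe sets with several ribosomal symbols co-varied much like the members, with a median r of 0.29 among themselves and 0.25 with the members. Rpl14 had the highest median correlation with the other members (0.47), and Rps15 the lowest (-0.13). The value of Rps15 is that of rc_AA892895_r_at alone, which did not move together with the gene's other sets. Members near Rps15 at the low end included Rpl17 (-0.03), Rplp0 (-0.01) and Rps16 (0.00). The 11 tested genes with the pyrimidine run printed for Rps15 and Rpl19 had a median correlation of 0.39 with the other members and a median region difference of -0.18, and the 24 tested genes with a start sequence but no run had 0.25 and -0.01. The genes with the run include both Rps15 and Rplp0, at the low end, and Rpl14, at the top.

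**Figure D5:**
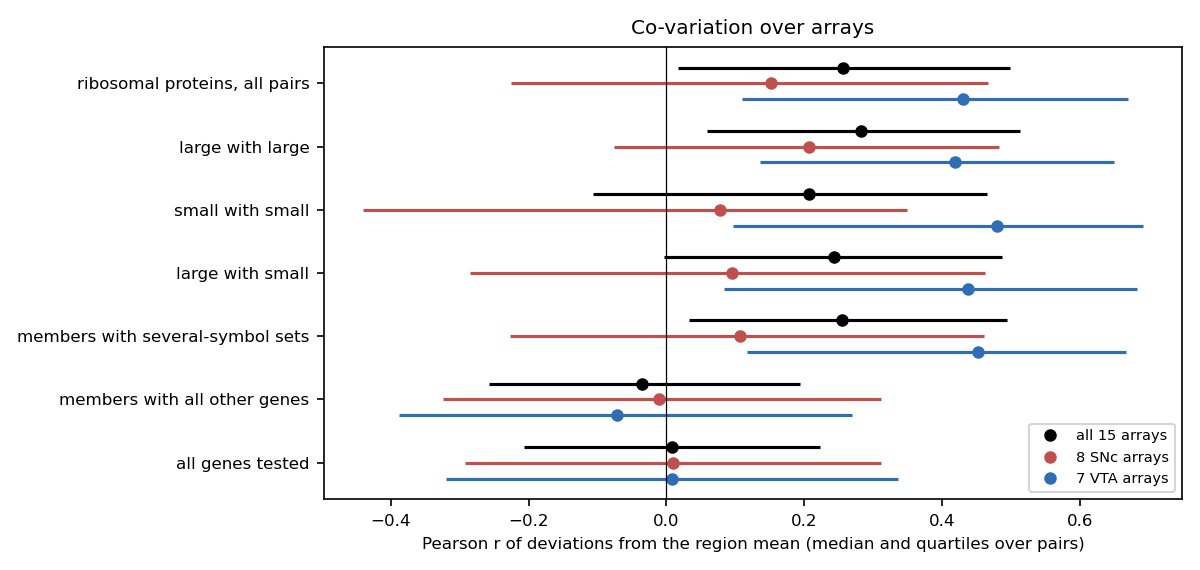
Pearson r of deviations from the region mean over arrays, as the median (points) and quartiles (lines) over pairs of genes, for all 15 arrays (black), the 8 SNc arrays (red) and the 7 VTA arrays (blue). Pairs of ribosomal proteins have medians of 0.26, 0.15 and 0.43, while pairs of all genes tested stay at 0.01.

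The 5 arrays with the highest spike signal were also taken as a group, a cut made after seeing the data. On these (SNc 5, SNc 7, SNc 8, VTA 5 and VTA 8) the CreX signal was 15631 or more, and on the other 10 it was 13285 or less. The cut is not the widest gap in the signal: that between VTA 8 (22182) and SNc 5 (18796) was wider. On these 5 arrays Rpl11, Rps6, Rpl23, Rpl17 and Rps27l lay above their region mean each time, and Rps16 never did, with a mean deviation of -0.43. The share of all genes that did so was not counted, and the group holds VTA 5, where 36 of 41 members were above their mean. Rpl21 had a mean deviation of -0.46 there and Rpl6 of 0.52. Between the regions, the median difference of the members was 0.03 within the 10 arrays of lower spike signal and -0.24 within the 5 arrays of higher spike signal, and it was -0.13 with the spike group as a block in limma. The region difference of Rps15 was -0.80 within the 10 arrays (limma adjusted p = 0.0189), -0.47 within the 5 arrays (limma adjusted p = 0.865, 3 SNc against 2 VTA arrays) and -0.69 with the block (limma adjusted p = 0.00854). The sign of the members' median thus differed between the spike groups. This cannot be told apart from VTA 5, which is in the higher group: without VTA 5 alone the median was 0.02. The sign of Rps15 could not differ between the groups, since on its set all VTA arrays lay above all SNc arrays.

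Other genes of translation did not pass the test between the regions either. Of 14 mitochondrial ribosomal proteins 0 were called (median difference 0.05, 8 higher and 6 lower in SNc), of 16 initiation factors 0 (0.02), of 5 elongation factors 0 (0.06), of 7 genes of the nucleolus and ribosome assembly 0 (-0.00) and of 11 genes of mTOR, S6 kinase and translation control 0 (0.21). At an unadjusted p under 0.05 in limma there were 2, 2, 1, 1 and 1 genes in these lists. Over all probe sets tested, 1.98% were called and 15.4% had an unadjusted p under 0.05, so counts of 0 in lists this short are near the background. On VTA 5, where 36 of 41 cytosolic members were above their region mean, the counts were 5 of 14 mitochondrial ribosomal proteins, 4 of 16 initiation factors, 0 of 5 elongation factors, 5 of 7 nucleolar genes and 6 of 11 genes of the mTOR list. On VTA 4 they were 8 of 14, 10 of 16, 4 of 5, 3 of 7 and 8 of 11. Rack1, a scaffold protein of the small subunit's head with a symbol of another form, was measured at 814 ± 145 in SNc and 739 ± 139 in VTA (difference 0.14, limma adjusted p = 0.702).

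The smallest p in each list belonged to genes of varied roles. Eif4ebp1, a repressor of cap-dependent initiation that mTOR switches off, was 334 ± 45.5 in SNc and 511 ± 134 in VTA, a difference of -0.56 (SE 0.16, limma adjusted p = 0.0718). Eif2b2, a subunit of the exchange factor that recharges eIF2, was 232 ± 50.4 in SNc and 333 ± 38.8 in VTA, a difference of -0.51 (SE 0.15, limma adjusted p = 0.0787). Mrpl58, a peptidyl-tRNA hydrolase built into the mitochondrial ribosome, was 82.2 ± 27.6 in SNc and 136 ± 43.5 in VTA, a difference of -0.63 (SE 0.19, limma adjusted p = 0.0947). These 3 genes had higher means in VTA and missed the threshold. Tufm, the mitochondrial elongation factor Tu, had a difference of 0.40 (limma adjusted p = 0.160), and Eef1a1 and Eef2, which serve cytosolic ribosomes, had differences of -0.25 (0.464) and 0.13 (0.655).

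Of the remaining genes named by the same rule, Polr1b, a subunit of the polymerase that makes ribosomal RNA, had a difference of -0.40 (limma adjusted p = 0.297), Dkc1, which modifies ribosomal RNA, 0.28 (0.565) and Gnl3, a nucleolar GTPase, -0.19 (0.634). Rps6kb1, the S6 kinase that phosphorylates Rps6, had a difference of 0.34 (limma adjusted p = 0.329) and Pdpk1, which activates it, 0.27 (0.428). Mrpl52 and Mrps31, both of the mitochondrial ribosome, had differences of -0.59 (limma adjusted p = 0.256) and 0.38 (0.374). Among initiation factors, Eif2b1 had 0.49 (limma adjusted p = 0.299) and Eif5b, which joins the subunits, -0.28 (0.363).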

How the data were processed

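Gene expression of laser-captured rat neurons was measured on 15 arrays, 8 SNc and 7 VTA. The authors deposited 1 linear intensity per probe set and array. By the values these were scaled to a common level before deposit, with a 2% trimmed mean of 150.2 on all 15 arrays. Which array software, background correction and RNA amplification were used is not stated in the labels, and no detection calls were used. Median intensity was 37.9 to 45.2 in SNc and 42.2 to 46.7 in VTA, and correlations between arrays were 0.890 to 0.965, so no array was a copy of another. Precision is limited by the number of arrays.

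Gene symbols came from the platform annotation. The 59 control probe sets were left out and log2(intensity + 16) was taken. Probe sets whose mean log2 value fell in the lowest 40% (below a signal of about 26.3) were removed, which left 5244. The offset shrinks differences of dim probe sets. SNc and VTA were compared with limma 3.58.1 in R 4.3.3 (lmFit, eBayes, two-sided; Benjamini-Hochberg, threshold 0.05); summaries used Python 3.11.15, NumPy 2.4.6 and pandas 2.3.3. The script was tested on simulated data. Start sequences were those of RefSeq (GRCr8).

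Members and lists were chosen with earlier results of these data known, so list counts and medians are descriptions. Genes named were members past the threshold, the 6 largest differences per direction, Rplp0, Rpsa and Rps6, the members with the highest and lowest median correlation, the 3 whose probe sets differed most, and the 3 genes per pathway list with the smallest p. Other names (such as Rpl3, Rpl23 or Rps16) were chosen after their values were seen. Alternatives covered the offset, normalization, filter, probe set choice, variance model, a Wilcoxon test, replicate number, each array left out and, added after seeing the data, arrays that stood apart and spike groups.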

Additional observations from a re-analysis of the deposited data

Results flagged for a closer look

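In 2 of 42 groups of arrays checked among the named genes and array summaries, 1 array stood apart from the others of its region by Dixon's criterion; chance alone gives about 1 in 20. Rpl6 had a log2 level of 9.81 on SNc 4, with the other 7 SNc arrays between 11.04 and 12.13. Rpsa had 10.35 on SNc 8, with the others between 9.16 and 9.70. SNc 4 had the lowest CreX spike signal of all arrays (6260), and SNc 8 was among the 5 arrays with the highest.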

How the results depend on the processing

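Over 5244 probe sets, 104 were called (44 higher in SNc, 60 in VTA). The count was 60 with an offset of 1, 67 by an exact Wilcoxon test, 60 without VTA 4 and VTA 5, 204 within the 10 arrays of lower and 3 within the 5 of higher spike signal, and 56 to 115 with 1 array left out (69 or fewer without SNc 2, 3 or 4 or VTA 1, 2, 3, 5 or 6); median centring gave 67 and 37 by direction. The count of ribosomal proteins called was 0 with median centring, with probe sets averaged per gene, without VTA 4 and VTA 5, and within the 5 arrays, and 0 to 1 with 1 array left out; it stayed 1 under 21 of 30 alternatives. Some uncalled differences changed sign: Rplp0 was 0.0068 with median centring and 0.13 within the 10 arrays. Rpl21 was -0.060 and Rpl26 -0.083 with probe sets averaged per gene. With 1 array left out, Rpl21 ran from -0.11 (without VTA 8; -0.0047 without SNc 6) to 0.23 (without SNc 7) and Rpl6 from -0.017 (without VTA 4) to 0.43 (without SNc 4). Within the 5 arrays Rpl21 was -0.13, Rpl26 -0.12, Rpl36 -0.37, Rpl6 -0.13 and Rps10 -0.11. The cause of these changes was not tested. The members' median lay between -0.24 and 0.03 over 29 alternatives, the extremes being the spike groups. The data did not settle whether equal numbers pair the arrays (correlation of their deviations 0.04 to 0.25, over 0.1 in 5 of 7 pairs; 3 SNc arrays correlated best with their own number). With the replicate number as a fixed block, which leaves SNc 7 out, 99 probe sets were called, the members' median was -0.01 and Rps15 kept its call (adjusted p = 0.0422); a random replicate block gave 153 calls. The median correlation between members (0.26) lay between 0.19 and 0.30 over 19 alternatives that kept at least 14 arrays. It was 0.13 without both VTA 4 and VTA 5, with the region means of all arrays kept. Its SE from leaving out 1 array at a time (jackknife) was 0.11.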
